A study of Oryctolagus cuniculus with 12 samples.

Results

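Conjunctiva from filtering blebs collected 14 days after trabeculectomy (TL14d) was compared with conjunctiva from eyes that were not operated on, in 6 of the 12 RNA sequencing libraries of the series, 3 from each group. The 6 libraries were taken by their labels. The deposited table listed 20566 rabbit genes, and 14835 of them passed the filter on low counts and were tested. The question was which genes still differed between the healing bleb and conjunctiva 14 days after surgery. The 3 TL14d libraries differed widely from each other, so the level in each library is given beside each test.

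Trabeculectomy is a glaucoma operation that lets aqueous humor drain from the eye into a pocket under the conjunctiva, the filtering bleb. The conjunctiva is a moist stratified epithelium with mucin-secreting cells, lying on loose connective tissue with fibroblasts, vessels and resident immune cells. After an incision the epithelium spreads over the defect, leukocytes enter, and fibroblasts turn into contractile myofibroblasts that lay down a provisional matrix of fibronectin and tenascin and later collagen. Scarring of this kind can close a bleb, and mitomycin C, which cross-links DNA and stops cells dividing, is applied during surgery to limit it.

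All animals were female Japanese White rabbits, a few months old per the study's methods. The TL14d samples were bleb conjunctiva of right eyes that had a scleral flap, mitomycin C under the conjunctiva and flap, removal of a piece of trabecular meshwork, a peripheral iridectomy and nylon sutures, followed by 1 conjunctival injection of betamethasone and an ointment with erythromycin and colistin. The control samples were conjunctiva of left eyes, and the labels did not say whether the right eye of those rabbits had been operated on. The labels did not say which animal a library came from, and did not give the time at which control conjunctiva was taken, so the p-values describe the spread between these samples only.

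Depth was similar, with 27111348 to 38591425 counts per library. Levels are CPM, each gene's count relative to the total of its library, scaled between libraries by the trimmed mean of M values, and 3 counts corresponded to 0.0712 to 0.101 CPM in these 6 libraries. Conjunctival epithelium was present in every library. KRT4, a keratin of moist stratified epithelium, was at 4353, 3193 and 1836 CPM in control 1, 2 and 3 and at 4473, 2982 and 3150 CPM in TL14d 1, 2 and 3. PAX6, a transcription factor of the ocular surface, was at 382, 291 and 200 CPM in the controls and 326, 172 and 116 CPM in the TL14d libraries. Bulk RNA does not separate fewer cells of a type from less RNA per cell, so none of the levels below can be read as cell numbers.

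TL14d 1 and control 3 stood apart from the rest of their groups, and control 2 differed by its skeletal muscle genes. TL14d 1 lay close to control 1 and control 2. Of 13145 genes whose mean level reached 1 CPM, 5.04% were over 2-fold apart between TL14d 1 and control 1 and 4.95% between TL14d 1 and control 2, against 6.05% between control 1 and control 2. TL14d 1 differed by over 2-fold from TL14d 2 at 22.4% and from TL14d 3 at 18.4% of these genes, whereas TL14d 2 and TL14d 3 differed at 11.9%. Genes more than 4-fold above the highest control numbered 7 in TL14d 1, 301 in TL14d 2 and 182 in TL14d 3. Control 3 differed by over 2-fold from control 1 at 18.1% and from control 2 at 13.5% of genes. It held 454 CPM of FKBP5, a classic glucocorticoid-induced gene, against 7.26 and 8.83 CPM in control 1 and 2, and it was rich in fibroblast, macrophage and neutrophil genes. Control 2 held skeletal muscle RNA, with a sum of 440 CPM over 8 muscle genes against 34.9 in control 1, 33.6 in control 3 and 7.42 to 60.2 in the TL14d libraries. The labels gave nothing that set these libraries apart, so results are also given without TL14d 1, and counts over a gene list without control 3 and without control 2 where these differ.

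**Figure D1:**
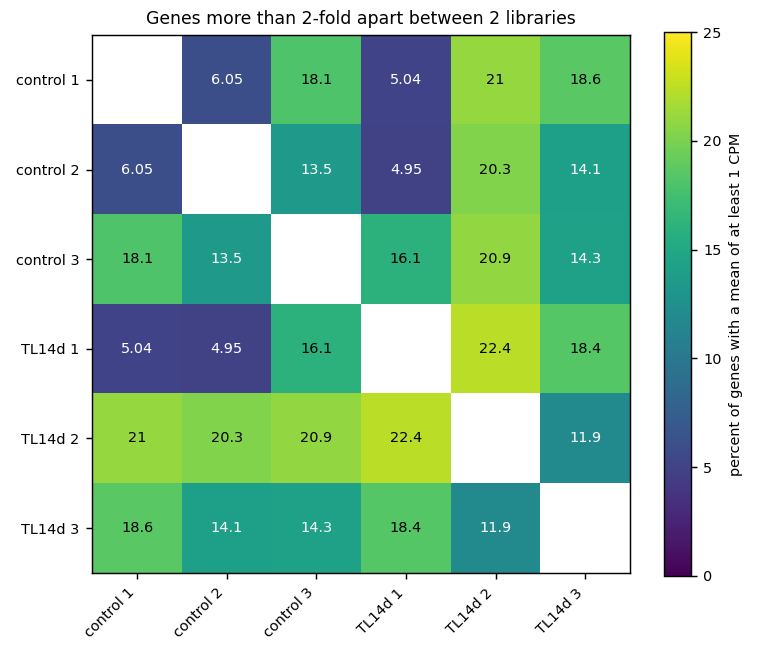
Percent of the 13145 genes whose mean level reached 1 CPM that were more than 2-fold apart between each pair of the 3 control and 3 TL14d libraries (colour and printed value, percent of genes). TL14d 1 was over 2-fold apart from control 1 at 5.04% of genes and from TL14d 2 at 22.4%.

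With all 3 TL14d libraries, edgeR's quasi-likelihood test called 0 of 14835 genes (0.0%) at a Benjamini-Hochberg adjusted p of 0.05, and the lowest adjusted p was 0.346. An unadjusted p under 0.05 was found for 1538 genes, 1032 higher (6.96%) and 506 lower (3.41%). These counts were 1082 higher (7.29%) and 534 lower (3.6%) without control 3, and 682 higher (4.6%) and 373 lower (2.51%) without control 2, and counts over gene lists below stand against these shares. DESeq2 called 367 genes and limma-voom with sample weights, which gave TL14d 1 a weight of 0.237 and TL14d 3 a weight of 1.94, called 1560. Without TL14d 1 the quasi-likelihood test called 721 genes, 531 higher (3.58%) and 190 lower (1.28%). That fit took part of its spread from the libraries of the other time points, and with only the 5 remaining libraries of the comparison the same test called 0 genes, with a lowest adjusted p of 0.077 and 2839 genes at an unadjusted p under 0.05. Statements below that a gene passed without TL14d 1 refer to the fit with 721 calls. TL14d 1 was singled out because its levels lay with the controls, a choice by outcome that favours calls, so these adjusted p-values describe TL14d 2 and TL14d 3 and are no independent test of the 14-day group. In 894 genes (6.03%) all 3 TL14d libraries lay above all 3 controls, and in 758 (5.11%) all lay below. TL14d 2 and TL14d 3 both lay above all 3 controls in 3210 genes (21.6%) and below them in 2980 (20.1%). With 1 library fewer, such separation is more frequent by group size alone. The number of calls therefore depended on TL14d 1, on the tool and on the other libraries in the fit. Genes at or near 0 in every control passed the filter through other libraries, so they could only come out higher. Differences below are log2 values, TL14d minus control, each with its standard error (SE) and adjusted p from the fit of all libraries, and the value without TL14d 1 follows with its adjusted p. Each SE was derived as the size of the log2 difference over the square root of the test's F statistic. For genes near 0 in the controls it is only a rough guide. For the genes named here that passed without TL14d 1, the highest adjusted p over the alternative analyses ran from 0.984 to 1.0.

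Across 33 gene lists, the median levels of TL14d 2 and TL14d 3 both lay above every control for 9 lists, those of wound matrix, metalloproteinases, myofibroblasts, cartilage and bone, dendritic cells, p53 targets, corneal epithelium, secreted defense proteins and the cell cycle. TL14d 1 lay among the controls or below them in each of these. Both lay below every control for 5 lists, those of goblet cells and mucins, cytochrome P450 and retinoid enzymes, nerve, adipocytes and cilium motility. By the same rules, 21.6% of all single genes tested lay above and 20.1% below. Some margins were small. The cytochrome P450 list lay at -0.19 and -0.06 against a lowest control of 0.01, and the cell cycle list at 0.37 and 0.53 against a highest control of 0.3. The plot of list medians shows each library, and the median log2 difference between groups over all genes tested was 0.02. Some members of these lists were picked for description after their values were seen.

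**Figure D2:**
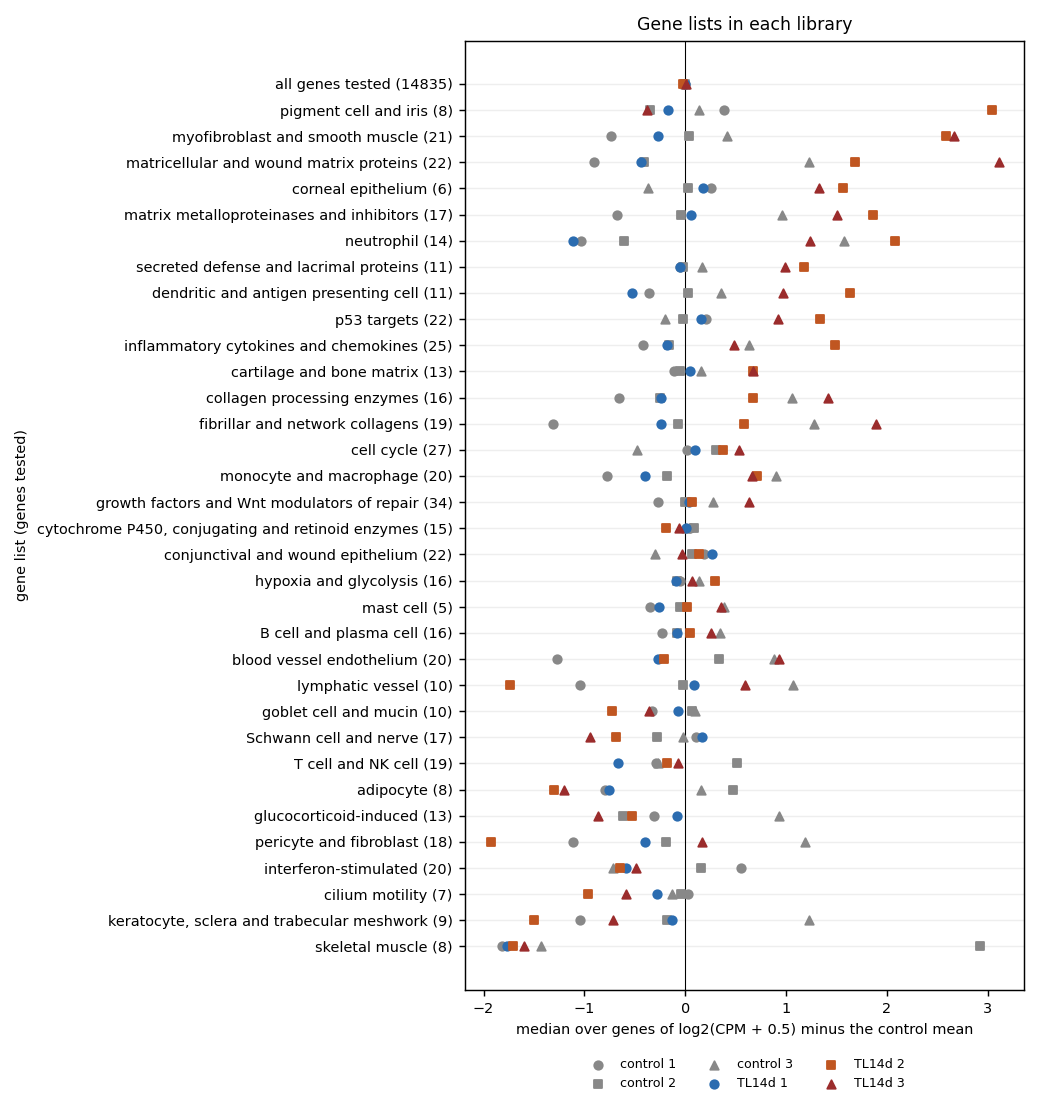
Median over the tested genes of each list of log2(CPM + 0.5) minus the mean of the 3 controls (x axis, log2 units), for each library (grey, controls; colours, TL14d). TL14d 2 and TL14d 3 lay at 2.58 and 2.66 for the myofibroblast list, while control 2 alone stood out for skeletal muscle.

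Some provisional wound matrix genes were high in TL14d 2 and TL14d 3. In 10 of the 22 genes tested both libraries lay above all controls and in 1 both lay below, beside 21.6% and 20.1% of all genes. The list median of TL14d 1 lay inside the control range. Of 22 matricellular and wound matrix genes tested, 10 were higher at an unadjusted p under 0.05 and 0 lower, beside 6.96% and 3.41% of all genes tested, and the median difference was 1.74 on the log2 scale, 2.90 without control 3 and 1.49 without control 2. Without TL14d 1, 6 passed the adjusted threshold as higher and 1 as lower, beside 3.58% and 1.28%. The count at an unadjusted p under 0.05 was 12 without control 3, beside 7.29% of all genes, and 8 without control 2, beside 4.6%.

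FN1, which encodes fibronectin, the scaffold of early granulation tissue (chromosome 7:156703386-156770768, minus strand, OryCun2.0), was at 244, 479 and 1500 CPM in control 1, 2 and 3 and at 415, 23263 and 12696 CPM in TL14d 1, 2 and 3. TL14d 1 lay inside the control range, and TL14d 2 and TL14d 3 lay far above it. The difference was 4.03 (SE 1.19, adjusted p = 0.351), and 4.6 (SE 0.8, adjusted p = 0.0198) without TL14d 1, with a range of 0.00463 to 0.984 over the alternatives. TNC, encoding tenascin C, a matrix glycoprotein of healing wounds, showed the same order of libraries, at 0.356, 1.25 and 3.16 CPM in the controls and 0.538, 1622 and 610 CPM in TL14d 1, 2 and 3. THBS1, encoding thrombospondin 1, an activator of latent TGF-β, was at 3.75, 7.93 and 58 CPM in the controls and 6.15, 1820 and 2507 CPM in TL14d 1, 2 and 3. Without TL14d 1 the differences were 9.45 (SE 1.18, adjusted p = 0.00682) for TNC and 6.54 (SE 1.17, adjusted p = 0.0214) for THBS1.

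The connective tissue growth factor gene CTGF was the 1 member of this list whose groups did not overlap. It was at 795, 610 and 417 CPM in the controls and 903, 2953 and 2075 CPM in TL14d 1, 2 and 3, a difference of 1.7 (SE 0.52, adjusted p = 0.358). TNN, encoding tenascin N, was at 0.309, 1.25 and 0.853 CPM in the controls and 0.841, 29.3 and 67.6 CPM in TL14d 1, 2 and 3. TNFAIP6, encoding a hyaluronan-binding protein induced by inflammatory cytokines, was at 0.19, 0.4 and 1.2 CPM and 0.235, 86.9 and 10.6 CPM in the same order. All 3 of these genes passed without TL14d 1. TGFBI, encoding a matrix protein abundant in the cornea, went the other way in TL14d 2 and TL14d 3. Its level was 2538, 1728 and 1708 CPM in the controls and 2708, 756 and 751 CPM in TL14d 1, 2 and 3, and the difference without TL14d 1 was -1.4 (SE 0.24, adjusted p = 0.0169).

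Some matrix genes separated TL14d 2 from TL14d 3. THBS4, encoding thrombospondin 4, was at 75.8 CPM in TL14d 2 and 1244 CPM in TL14d 3, against 1.31, 5.1 and 25.6 CPM in the controls. CTHRC1, a collagen triple helix repeat protein of activated fibroblasts, was at 17.3 and 186 CPM in TL14d 2 and TL14d 3, against 0.427, 1.03 and 2.66 CPM in the controls. LTBP2, a latent TGF-β binding protein, was instead higher in TL14d 2, at 848 CPM, than in TL14d 3, at 499 CPM, with controls at 5.29, 5.43 and 20.4 CPM. None of these 3 genes passed the adjusted threshold in either fit, and TL14d 1 held 4.57, 0.538 and 4.37 CPM of them.

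The collagens did not move as 1 group. The main fibrillar collagens overlapped between groups. COL1A1 was at 2416, 8279 and 18606 CPM in the controls and 5981, 3035 and 16898 CPM in TL14d 1, 2 and 3, a difference of -0.18 (SE 1.15, adjusted p = 0.968). COL3A1 was at 3636, 11225 and 23282 CPM and 8709, 3651 and 17686 CPM in the same order, and COL1A2 differed by -0.37 (SE 1.07, adjusted p = 0.923). Control 3, which was rich in fibroblast genes, held the highest level of all 3. These 3 genes reversed sign under limma-voom weights.

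Of 19 collagens tested, 9 lay above all controls in both TL14d 2 and TL14d 3 and 2 lay below, beside 21.6% and 20.1% of all genes tested. COL8A1, a network collagen of vessel walls and Descemet's membrane (chromosome 14:120913933-121077408, minus strand), was at 25.6, 32.2 and 17.3 CPM in the controls and 28.7, 430 and 493 CPM in TL14d 1, 2 and 3, with a difference of 3.66 (SE 0.85, adjusted p = 0.346). Its partner COL8A2 was at 4.32, 6.53 and 15 CPM and 8.74, 299 and 368 CPM. Without TL14d 1 the differences were 4.2 (SE 0.46, adjusted p = 0.00423) and 5.27 (SE 0.87, adjusted p = 0.0157). COL12A1, a collagen that binds fibril surfaces, was at 10.1, 8.13 and 17.5 CPM in the controls and 6.19, 272 and 1073 CPM in TL14d 1, 2 and 3, and passed without TL14d 1 with a difference of 5.82 (SE 1.19, adjusted p = 0.0308). COL11A1, a minor fibrillar collagen of cartilage and scar, was at 0.142, 1.2 and 5.04 CPM and 0.303, 285 and 1509 CPM, and its adjusted p without TL14d 1 missed the threshold (8.72 (SE 2.43, adjusted p = 0.0784)). COL7A1, which anchors the epithelium to the stroma, was the 1 collagen above all controls in every TL14d library, at 215, 207 and 231 CPM against 253, 520 and 460 CPM, a difference of 0.92 (SE 0.26, adjusted p = 0.346). COL14A1, a fibril-associated collagen, overlapped at 172, 326 and 1064 CPM and 305, 244 and 1457 CPM, and COL2A1, the collagen of cartilage, was at 2.92, 9.98 and 67 CPM and 16.5, 1.82 and 2.28 CPM, both chosen after their values were seen. At an unadjusted p under 0.05, 8 collagens were higher and 0 lower, and 5 passed without TL14d 1. The count was 8 without control 3 and 4 without control 2. The median difference was 0.49, and it was 1.41 without control 3 and 0.37 without control 2.

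Some enzymes that mature collagen were also high in TL14d 2 and TL14d 3. Of 16 tested, 4 were higher at an unadjusted p under 0.05, beside 6.96% of all genes. The count became 7 without control 3, beside 7.29%, and stayed 4 without control 2, beside 4.6%. LOXL4, a lysyl oxidase that cross-links collagen, was at 8.88, 14.1 and 19.4 CPM in the controls and 12.5, 278 and 77.2 CPM in TL14d 1, 2 and 3. PLOD2, the lysyl hydroxylase of stable collagen cross-links, was at 36.6, 15.3 and 22 CPM and 28.1, 345 and 163 CPM. P4HA3, a prolyl hydroxylase subunit, was at 1.9, 2.13 and 6.5 CPM and 4.71, 34 and 123 CPM. These 3 were the members of 16 tested that passed without TL14d 1, by 3.66 (SE 0.5), 3.37 (SE 0.53) and 4.49 (SE 1.06). LOX, the founding lysyl oxidase, overlapped between groups at 49, 127 and 613 CPM in the controls and 112, 76.7 and 419 CPM in TL14d 1, 2 and 3.

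**Figure D3:**
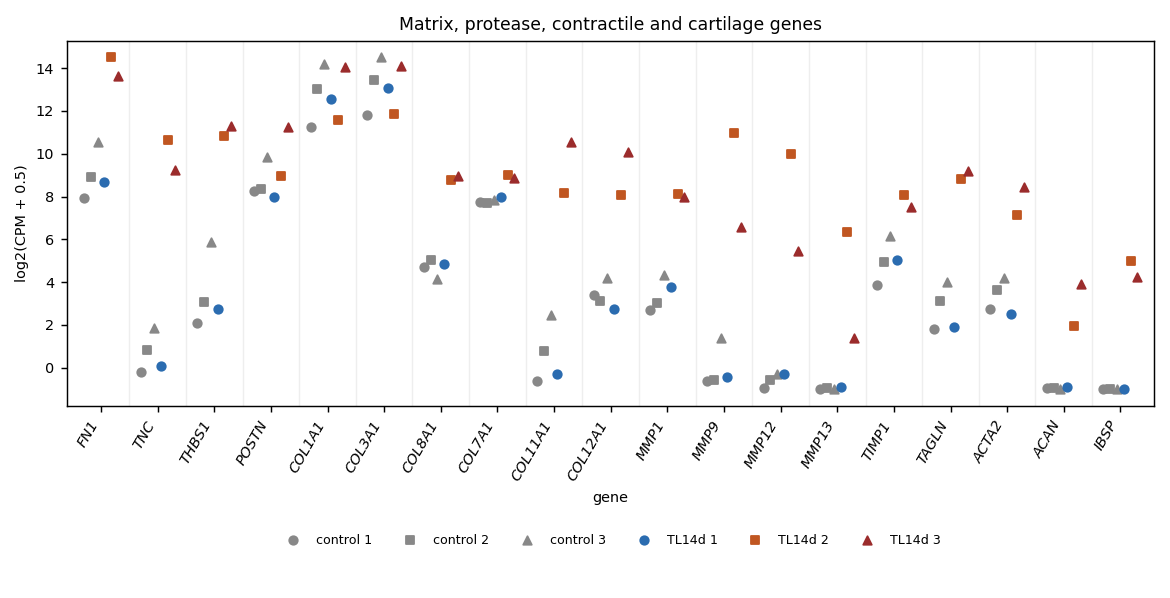
Level of matrix, protease and myofibroblast genes in each library, as log2(CPM + 0.5) (y axis), with the 3 controls in grey and TL14d 1, 2 and 3 in blue, orange and red. TL14d 1 sat with the controls for most genes, such as FN1 at 415 CPM, and TL14d 2 and TL14d 3 sat above them.

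Several metalloproteinases, which cut matrix, reached their highest levels in TL14d 2, and others in TL14d 3. Of 17 metalloproteinases and inhibitors tested, 9 were higher and 0 lower at an unadjusted p under 0.05, beside 6.96% of all genes higher, 6 passed without TL14d 1, beside 3.58%, and the median difference was 1.62. The count was 10 without control 3, beside 7.29% of all genes and with a median of 2.85, and 6 without control 2, beside 4.6% and with a median of 1.33. MMP12, macrophage elastase, was at 0.0237, 0.175 and 0.326 CPM in the controls and 0.303, 1020 and 43.5 CPM in TL14d 1, 2 and 3. MMP9, gelatinase B of neutrophils, macrophages and migrating epithelium, was at 0.142, 0.175 and 2.13 CPM and 0.235, 1992 and 94.3 CPM. TL14d 2 exceeded TL14d 3 by 23.5-fold for MMP12 and 21.1-fold for MMP9, and TL14d 3 still exceeded every control. MMP1, interstitial collagenase, was instead about equal in TL14d 2 and TL14d 3, at 13, 274 and 251 CPM in TL14d 1, 2 and 3 against 6.03, 7.53 and 19.4 CPM in the controls. Without TL14d 1 the differences were 11.55 (SE 1.46, adjusted p = 0.00728) for MMP12, 10.32 (SE 1.65, adjusted p = 0.0142) for MMP9 and 4.58 (SE 0.58, adjusted p = 0.00728) for MMP1. The ranges over the alternatives were 1.38e-07 to 0.984, 1.31e-05 to 0.984 and 0.000404 to 0.984.

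MMP3, stromelysin 1, was at 0, 0 and 0.0251 CPM in the controls and 0, 6.19 and 1.24 CPM in TL14d 1, 2 and 3. MMP13, collagenase 3, was near 0 in TL14d 1 and the controls, at 0, 0.025 and 0 CPM in the controls and 0.0336, 81.6 and 2.12 CPM in TL14d 1, 2 and 3. MMP7, an epithelial metalloproteinase, was above all controls in every TL14d library, at 4.87, 4.53 and 3.31 CPM against 5.98, 16.5 and 8.2 CPM, with a difference of 1.27 (SE 0.58, adjusted p = 0.486). TIMP1, the secreted inhibitor of these enzymes, was at 14.1, 30.3 and 71 CPM in the controls and 32.7, 268 and 182 CPM in TL14d 1, 2 and 3, and differed by 2.55 (SE 0.58, adjusted p = 0.0435) without TL14d 1. MMP2, gelatinase A of fibroblasts, overlapped between groups, at 218, 522 and 1740 CPM and 527, 892 and 3253 CPM. MMP11, stromelysin 3, was at 2.75, 4.63 and 7.9 CPM and 6.86, 26.8 and 69.8 CPM, and MMP14, a membrane-bound metalloproteinase, at 121, 165 and 385 CPM and 170, 328 and 559 CPM, so these genes were highest in TL14d 3. MMP11 and MMP14 were chosen after their values were seen.

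Contractile myofibroblast genes were high together in TL14d 2 and TL14d 3. Of 21 genes tested, 12 were higher and 0 lower at an unadjusted p under 0.05, 10 passed without TL14d 1, and 16 lay above all controls in both TL14d 2 and TL14d 3, beside 21.6% of all genes tested. The median difference was 1.97, and 2.32 without control 3. The count at an unadjusted p under 0.05 was 13 without control 3 and 10 without control 2. TAGLN, which encodes an actin-binding protein of smooth muscle, was at 2.99, 8.15 and 15.5 CPM in the controls and 3.19, 452 and 578 CPM in TL14d 1, 2 and 3. ACTA2, encoding α-smooth muscle actin, the marker of myofibroblasts, was at 6.19, 11.7 and 17.9 CPM and 5.14, 142 and 352 CPM. TL14d 1 was near the lowest control for both. Without TL14d 1 the differences were 5.86 (SE 1.13, adjusted p = 0.0253) for TAGLN and 4.37 (SE 1.02, adjusted p = 0.0465) for ACTA2.

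LRRC15, a surface protein of activated fibroblasts, was at 0.142, 0.1 and 0.1 CPM in the controls and 0, 56.2 and 286 CPM in TL14d 1, 2 and 3. ANKRD1, a stretch-responsive gene of the Hippo pathway, was at 0, 0.125 and 0 CPM and 0, 55.9 and 43.4 CPM. INHBA, which encodes activin A, a TGF-β family ligand, was at 3.06, 4.03 and 5.67 CPM and 5.41, 138 and 82.2 CPM. Their differences without TL14d 1 were 10.5 (SE 2.05), 10.11 (SE 1.87) and 4.69 (SE 0.73), and all passed. TGFB2, a TGF-β ligand, was at 8.88, 11.9 and 13.5 CPM in the controls and 6.39, 78.8 and 44.4 CPM in TL14d 1, 2 and 3, and passed at 2.43 (SE 0.36). MYH11, the heavy chain of mature smooth muscle, overlapped between groups, at 3.23, 15.9 and 8.63 CPM and 2.76, 6.03 and 14.6 CPM.

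Single genes known to act in TGF-β signalling were named after their values were seen, so they say nothing of the pathway as a whole. PMEPA1, an inhibitor of TGF-β signalling that TGF-β induces, was at 0.19, 0.375 and 1.05 CPM in the controls and 0.336, 84.4 and 33.6 CPM in TL14d 1, 2 and 3. BAMBI, a decoy receptor of the family, was at 0.926, 1.2 and 1.48 CPM and 0.74, 74.3 and 30.4 CPM. SKIL, a repressor of SMAD transcription factors, was at 20.8, 23.4 and 21.1 CPM and 20.5, 75 and 57.2 CPM. The differences without TL14d 1 were 6.77 (SE 0.69, adjusted p = 0.00319), 5.44 (SE 0.46, adjusted p = 0.00189) and 1.6 (SE 0.14, adjusted p = 0.00206). ACTN1, encoding an α-actinin that cross-links actin filaments, was at 45.9, 42.6 and 49.1 CPM and 39.7, 330 and 257 CPM and differed by 2.68 (SE 0.17, adjusted p = 0.000455).

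Resident fibroblast and stromal genes gave few calls, and TL14d 2 and TL14d 3 were far apart. Their list medians lay at -1.93 and 0.17 from the control mean, against -1.11, -0.19 and 1.19 in the controls. Of 18 pericyte and fibroblast genes tested, 0 were higher and 1 lower at an unadjusted p under 0.05, beside 6.96% and 3.41% of all genes. The median difference was -0.63, or -0.07 without control 3. The 1 that was lower was DPP4, a dipeptidase of fibroblasts and epithelium, at 433, 304 and 309 CPM in the controls and 245, 156 and 273 CPM in TL14d 1, 2 and 3, a difference of -0.63 (SE 0.22, adjusted p = 0.395). PDGFRA, a growth factor receptor of fibroblasts, was at 66.6, 123 and 310 CPM and 107, 10.7 and 53.2 CPM, with TL14d 2 and TL14d 3 below every control. ASPN, a small leucine-rich proteoglycan, went against its list, at 15.7, 22.6 and 113 CPM and 22.7, 233 and 1010 CPM, a difference of 3.07 (SE 1.69, adjusted p = 0.563). The summed level of the list was 1428 CPM in TL14d 2 and 8108 in TL14d 3, against 3211, 5606 and 17235 in the controls, so control 3 held most.

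A few cartilage and bone matrix genes were present in TL14d 2 and TL14d 3 and at or near 0 in the other 4 libraries. IBSP, bone sialoprotein, was at 0, 0 and 0 CPM in the controls and 0, 31.6 and 18.5 CPM in TL14d 1, 2 and 3. The mean of TL14d 2 and TL14d 3 was at least 340-fold higher than the control mean, taken at a floor of 3 counts per library. ACAN, the cartilage proteoglycan aggrecan, was at 0.0237, 0.025 and 0 CPM and 0.0336, 3.34 and 14.6 CPM. MATN3, a cartilage matrilin, was at 0, 0.125 and 0.0251 CPM and 0, 0.679 and 26.7 CPM and was mainly a feature of TL14d 3. Of 13 genes tested, 5 were higher and 0 lower at an unadjusted p under 0.05, beside 6.96% and 3.41% of all genes. These counts were the same without control 3 or control 2, and 4 passed without TL14d 1. Members at or near 0 in the controls, such as IBSP, ACAN and MATN3, passed the filter through other libraries. They could only come out higher, so the split by direction is a description. Other members lay below all controls in both TL14d 2 and TL14d 3, and they are given here after their values were seen. ALPL, an alkaline phosphatase, was at 318, 259 and 340 CPM and 346, 103 and 55.6 CPM. CHAD, chondroadherin, was at 4.32, 10.7 and 30.5 CPM and 6.49, 0.245 and 3.87 CPM, and COL9A3, a cartilage collagen, at 8.35, 48.2 and 90.2 CPM and 20.5, 0.19 and 2.83 CPM. SOX9, the master regulator of chondrocytes, overlapped at 113, 120 and 66.7 CPM and 100, 155 and 102 CPM, and the osteoblast genes SP7 and BGLAP had too few counts to be tested.

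Inflammatory cytokines and chemokines stood out in TL14d 2. The list summed to 1825 CPM there, against 470 to 742 CPM in the controls, 601 in TL14d 1 and 499 in TL14d 3. CXCL8, the neutrophil chemokine interleukin 8, was at 0.665, 0.951 and 5.04 CPM in the controls and 0.572, 494 and 21.7 CPM in TL14d 1, 2 and 3. IL1B was at 0.475, 0.4 and 4.01 CPM and 0.235, 296 and 12.7 CPM, and IL1A at 0.0949, 0.125 and 0.125 CPM and 0.0336, 155 and 5.14 CPM. Both encode interleukin 1 cytokines, which start acute inflammation. TL14d 2 exceeded TL14d 3 by 22.8-fold for CXCL8, 23.2-fold for IL1B and 30.2-fold for IL1A. Without TL14d 1 the differences were 6.86 (SE 1.44, adjusted p = 0.033), 6.57 (SE 1.4, adjusted p = 0.0351) and 9.4 (SE 1.78, adjusted p = 0.0245), with ranges over the alternatives of 0.000996 to 0.984, 0.00267 to 0.984 and 0.000111 to 0.984.

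Several other cytokines were also highest in TL14d 2, at lower levels. IL6 was at 0.0336, 18.2 and 1.6 CPM in TL14d 1, 2 and 3 against 0, 0.075 and 0.276 CPM in the controls, TNF at 0.235, 24.8 and 1.53 CPM against 0.214, 0.8 and 0.176 CPM, and CCL2, the monocyte chemokine, at 0.605, 20.1 and 2.47 CPM against 0.237, 0.4 and 2.18 CPM. IL6 and TNF passed without TL14d 1, by 6.38 (SE 1.2) and 5.04 (SE 1.03), and CCL2 did not (3.59 (SE 0.96, adjusted p = 0.0691)). IL20, a cytokine that acts on epithelium, was at 0, 0.025 and 0.0251 CPM in the controls and 0, 10.1 and 0.553 CPM in TL14d 1, 2 and 3. CXCL12, a chemokine of stromal cells, and IL18, a cytokine of epithelium and macrophages, lay below all controls in both TL14d 2 and TL14d 3 and were chosen after their values were seen. CXCL12 was at 14.1, 18.4 and 46.9 CPM and 14.4, 2.26 and 9.67 CPM, and IL18 at 193, 186 and 129 CPM and 172, 120 and 119 CPM. Of 25 genes tested, 10 were higher and 0 lower at an unadjusted p under 0.05, 8 passed without TL14d 1, and the median difference was 0.59. Both TL14d 2 and TL14d 3 lay above all controls in 11 of the 25 genes and below them in 4, beside 21.6% and 20.1% of all genes. Without control 3 the counts were 11 higher and 2 lower, with a median of 1.14, and without control 2 they were 8 higher and 0 lower, with a median of 1.09.

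The symbol MCP-1 in this annotation marks macrophage cationic peptide 1 (gene 100009115, unplaced sequence), a rabbit defensin, and not the chemokine CCL2. It was at 0.0949, 0.15 and 0.0752 CPM in the controls and 0.168, 133 and 9.05 CPM in TL14d 1, 2 and 3, a difference of 8.75 (SE 2.1, adjusted p = 0.346). The platelet chemokine gene PPBP was at 0, 0.05 and 0.0251 CPM and 0, 287 and 7.0 CPM. CCL22, a chemokine of dendritic cells and macrophages, was at 0.475, 0.6 and 0.376 CPM and 0.74, 53.4 and 2.54 CPM, and IL23A, a subunit of interleukin 23, at 0, 0.075 and 0.0251 CPM and 0.202, 14.7 and 0.456 CPM.

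Leukocyte genes differed by class, and their counts depended on control 3. For neutrophils, the summed level of 14 genes was 8.09, 19.6 and 126 CPM in the controls and 8.84, 2179 and 220 CPM in TL14d 1, 2 and 3, and MMP9 alone gave 1992 CPM in TL14d 2. The neutrophil receptor gene CXCR2 was at 0.237, 0.2 and 6.42 CPM and 0.168, 0.897 and 2.73 CPM, and CSF3R, the receptor for granulocyte colony-stimulating factor, at 1.09, 2.05 and 18.9 CPM and 1.01, 6.63 and 16.8 CPM, so control 3 was the highest library for both. The list had 3 of 14 members higher at an unadjusted p under 0.05, beside 6.96% of all genes. It had 1 without control 2, beside 4.6%, and 9 without control 3, beside 7.29%. The median difference went from 1.19 to 3.45 without control 3.

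Among 20 monocyte and macrophage genes tested, 3 were higher and 2 lower at an unadjusted p under 0.05, beside 6.96% and 3.41% of all genes. MSR1, a scavenger receptor, was at 0.997, 1.03 and 2.61 CPM in the controls and 0.269, 41.8 and 10.2 CPM in TL14d 1, 2 and 3. ITGAX, the integrin CD11c, was at 1.85, 1.23 and 0.953 CPM and 1.08, 64.5 and 6.9 CPM. Both passed without TL14d 1, by 4.07 (SE 0.62) and 4.73 (SE 0.83), together with MMP12. The 2 that were lower were CD163, a hemoglobin scavenger receptor, at 7.45, 19.3 and 157 CPM and 5.35, 8.18 and 25.6 CPM, and C1QC, a complement subunit, at 31.9, 75.7 and 221 CPM and 55.7, 13.6 and 40.2 CPM. Control 3 held the most of both. Without it 7 members were higher and 0 lower, beside 7.29% and 3.6% of all genes. Without control 2 the counts stayed at 3 and 2, beside 4.6% and 2.51%. CD5L, a protein of tissue macrophages, was at 2.54, 7.33 and 23.5 CPM in the controls and 4.57, 0 and 0.163 CPM in TL14d 1, 2 and 3, and was the 1 macrophage gene that passed as lower without TL14d 1 (-7.12 (SE 1.64, adjusted p = 0.0446)).

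Most dendritic cell genes lay above the controls in TL14d 2 and TL14d 3. CD207, langerin of Langerhans cells, was at 0.19, 0.2 and 0.502 CPM in the controls and 0.37, 22 and 3.39 CPM in TL14d 1, 2 and 3. CCR7, the receptor that guides mature dendritic cells to lymph nodes, was at 0.285, 0.5 and 0.677 CPM and 0.269, 10.8 and 2.67 CPM. CD80, a costimulatory ligand for T cells, was at 3.32, 4.48 and 5.64 CPM and 3.09, 72.8 and 14.1 CPM. The differences without TL14d 1 were 5.4 (SE 0.78, adjusted p = 0.0111), 3.79 (SE 0.59, adjusted p = 0.0137) and 3.28 (SE 0.68, adjusted p = 0.0321). Of 11 genes tested, 5 were higher and 0 lower at an unadjusted p under 0.05, and 8 were above all controls in both TL14d 2 and TL14d 3, beside 21.6% of all genes. Without control 3 the count was 6, and without control 2 it was 4. RLA-DR-ALPHA, a class II antigen-presenting chain chosen after its values were seen, was at 120, 153 and 164 CPM and 68.4, 359 and 391 CPM, lowest of the 6 libraries in TL14d 1.

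Of 19 T and NK cell genes tested, 0 lay above and 3 below all controls in every TL14d library, and of 16 B and plasma cell genes 2 lay above and 2 below, beside 6.03% and 5.11% of all genes. CD3E, a subunit of the T cell receptor complex, was at 2.47, 6.1 and 2.73 CPM in the controls and 2.15, 3.04 and 4.04 CPM in TL14d 1, 2 and 3. CD8A overlapped between groups, at 2.28, 6.73 and 1.25 CPM and 0.504, 0.435 and 1.37 CPM, while its partner CD8B was higher in TL14d 2 and TL14d 3, at 0.403, 1.0 and 0.376 CPM and 0.134, 7.25 and 7.78 CPM. FOXP3, the transcription factor of regulatory T cells, was at 0.214, 0.325 and 0.201 CPM and 0.168, 1.74 and 1.43 CPM. CR2, a complement receptor of B cells and follicular dendritic cells, was at 0.19, 0.25 and 0.702 CPM and 0.572, 12 and 113 CPM, and CD22, a B cell lectin, at 0.237, 0.6 and 0.778 CPM and 0.37, 4.97 and 3.65 CPM. Of the T and NK cell genes, 2 were higher and 1 lower at an unadjusted p under 0.05, beside 6.96% and 3.41% of all genes, with 1 and 1 without control 3 and 1 and 0 without control 2. Of the B and plasma cell genes, 3 were higher and 0 lower, with 4 higher without control 3 and 2 without control 2.

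Of 22 p53 target genes tested, 8 lay above all controls in every TL14d library, beside 6.03% of all genes tested. These genes are switched on by p53, a transcription factor that responds to DNA damage and other stress by halting the cell cycle, starting repair or starting apoptosis. At an unadjusted p under 0.05, 15 of 22 were higher and 0 lower, beside 6.96% and 3.41% of all genes, and the median difference was 0.89. Without TL14d 1, 11 passed the adjusted threshold, beside 3.58% of all genes, and 18 lay above all controls in both TL14d 2 and TL14d 3, beside 21.6% of all genes. The count at an unadjusted p under 0.05 was 9 without control 3, beside 7.29% of all genes and with a median of 0.91. It was 10 without control 2, beside 4.6% and with a median of 1.02, and 1 gene was lower.

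CDKN1A, encoding the cell cycle inhibitor p21 (chromosome 12:26614081-26621175, plus strand), was at 135, 104 and 52.6 CPM in the controls and 142, 969 and 586 CPM in TL14d 1, 2 and 3. TL14d 1 exceeded control 1 by little, and TL14d 2 and TL14d 3 exceeded every control several-fold. The difference was 2.54 (SE 0.6, adjusted p = 0.346), and 3.0 (SE 0.4, adjusted p = 0.00882) without TL14d 1, with a range of 0.00201 to 0.984 over the alternatives. DDB2, a DNA damage recognition protein of nucleotide excision repair, was at 49.6, 39.3 and 23.7 CPM and 74.9, 124 and 98.3 CPM, with a difference of 1.4 (SE 0.29, adjusted p = 0.346). AEN, a nuclease that acts in apoptosis, was at 12.2, 9.51 and 10.2 CPM and 16.2, 22 and 20.4 CPM, with a difference of 0.88 (SE 0.18, adjusted p = 0.346), and the lowest unadjusted p of the list. For both, TL14d 1 was also clear of the highest control.

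BAX, a pore-forming protein of apoptosis, was at 21.9, 17.4 and 15.4 CPM in the controls and 24.6, 39.3 and 34.4 CPM in TL14d 1, 2 and 3, and differed by 0.85 (SE 0.19, adjusted p = 0.346). BBC3, another apoptosis activator, was at 3.94, 4.43 and 1.78 CPM and 6.59, 6.14 and 6.22 CPM, and in this gene the 3 TL14d libraries were nearly equal. SESN2, a sestrin that restrains growth signalling under stress, was at 23.8, 17.3 and 13.2 CPM and 26.9, 59.1 and 46.6 CPM. PHLDA3, which inhibits AKT signalling, was at 38, 37.8 and 25.8 CPM and 50.3, 65.3 and 65.2 CPM. FDXR, a mitochondrial ferredoxin reductase, was highest in TL14d 1, at 4.11, 3.18 and 2.96 CPM and 7.16, 4.62 and 4.79 CPM. The differences were 0.9 (SE 0.36, adjusted p = 0.439) for BBC3, 1.29 (SE 0.34, adjusted p = 0.346) for SESN2, 0.83 (SE 0.22, adjusted p = 0.346) for PHLDA3 and 0.69 (SE 0.27, adjusted p = 0.431) for FDXR.

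In the p53 targets TIGAR, MDM2, FAS and RRM2B, TL14d 1 did not lie above the highest control. TIGAR, a phosphatase that diverts glucose from glycolysis, was at 7.74, 5.55 and 6.6 CPM in the controls and 5.45, 77.6 and 49.3 CPM in TL14d 1, 2 and 3, and its difference without TL14d 1 was 3.26 (SE 0.3, adjusted p = 0.00206). MDM2, the ubiquitin ligase that degrades p53, was at 194, 171 and 157 CPM and 162, 647 and 341 CPM. FAS, the death receptor, was at 4.49, 4.78 and 5.34 CPM and 3.43, 26.5 and 9.9 CPM, and RRM2B, a ribonucleotide reductase subunit for DNA repair, at 13.5, 12.7 and 10.2 CPM and 10.3, 51.3 and 27.6 CPM. All 4 passed without TL14d 1. Not every target was higher. SESN1 was below all controls in every TL14d library, at 33.9, 33.5 and 70 CPM and 33, 24.5 and 29.6 CPM, a difference of -0.66 (SE 0.33, adjusted p = 0.522). BTG2, an antiproliferative gene, overlapped at 202, 174 and 40.7 CPM and 230, 166 and 89.3 CPM, with TL14d 1 the highest of the 6 libraries.

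**Figure D4:**
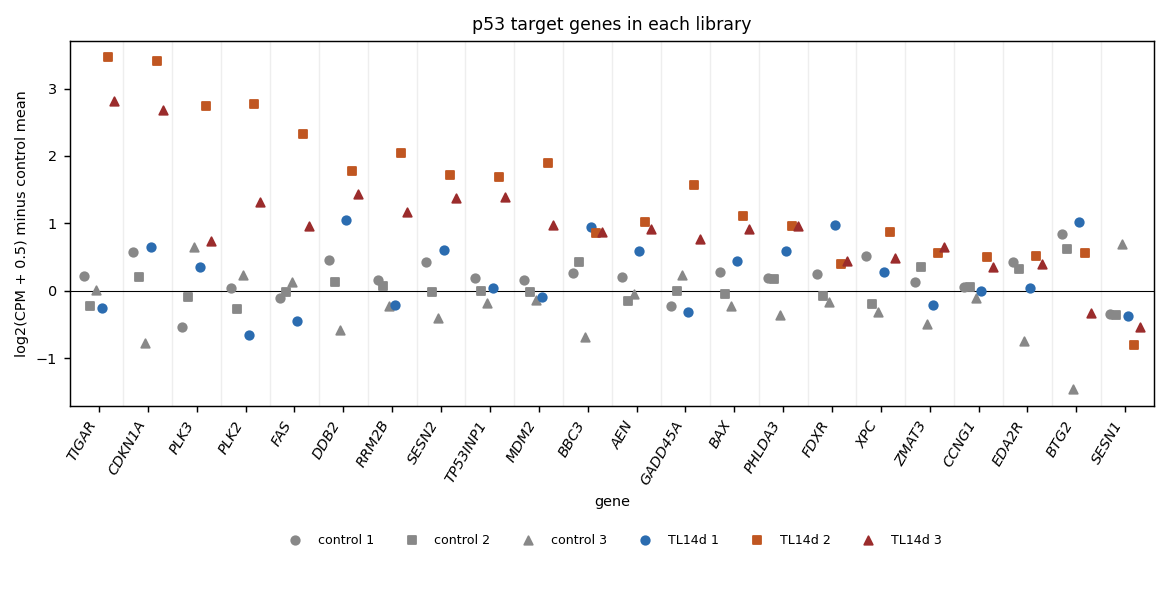
Level of 22 p53 target genes in each library, as log2(CPM + 0.5) minus the mean of the 3 controls (y axis, log2 units), with controls in grey and TL14d 1, 2 and 3 in blue, orange and red. In 8 genes, among them CDKN1A, DDB2 and BAX, all 3 TL14d libraries lay above all controls, and in SESN1 all lay below.

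Of 27 cell cycle genes tested, 3 were higher and 0 lower at an unadjusted p under 0.05, beside 6.96% and 3.41% of all genes. Without TL14d 1, 0 passed. The count at an unadjusted p under 0.05 was 1 without control 3, beside 7.29% of all genes, and 2 without control 2, beside 4.6%. TL14d 2 and TL14d 3 both lay above all controls in 12 of the 27 genes and below them in 0, beside 21.6% and 20.1% of all genes, and the median difference was 0.32, or 0.06 without control 3. MKI67, the proliferation antigen Ki-67, was at 45.3, 70 and 28.2 CPM in the controls and 34.2, 48.7 and 86.9 CPM in TL14d 1, 2 and 3. AURKA, a mitotic kinase, was above all controls in every TL14d library, at 3.7, 4.03 and 3.41 CPM against 4.74, 8.75 and 5.96 CPM, a difference of 0.8 (SE 0.27, adjusted p = 0.388). PCNA, the sliding clamp of DNA replication and also a p53 target, was at 66.5, 54.6 and 44 CPM and 60.3, 96.5 and 83.5 CPM.

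Of 22 epithelial genes tested, 8 lay above and 4 below all controls in both TL14d 2 and TL14d 3, beside 21.6% and 20.1% of all genes. At an unadjusted p under 0.05, 6 were higher and 0 lower, beside 6.96% and 3.41% of all genes. The higher count was 4 without control 3, beside 7.29%, and 4 without control 2, beside 4.6%. The median difference was 0.20, or -0.02 without control 3 and 0.0 without TL14d 1. KRT17, a keratin of injured epithelium (chromosome 19:42579237-42583993, minus strand), was at 12.3, 17.8 and 21.6 CPM in the controls and 14.4, 2317 and 779 CPM in TL14d 1, 2 and 3. KRT16, another keratin of injured and fast-growing epithelium, was at 0.142, 0.325 and 0.226 CPM and 0.168, 20.9 and 2.77 CPM. TL14d 1 was inside the control range for both. The differences without TL14d 1 were 6.49 (SE 0.76, adjusted p = 0.0054), with a range of 1.41e-05 to 0.984 over the alternatives, and 5.66 (SE 1.15, adjusted p = 0.0309).

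KRT5, the keratin of basal cells, was above all controls in every TL14d library, at 2695, 1937 and 1258 CPM against 2808, 8580 and 5122 CPM, a difference of 1.49 (SE 0.47, adjusted p = 0.376). KRT8, a keratin of simple epithelium, was at 259, 279 and 274 CPM against 349, 710 and 537 CPM, a difference of 0.97 (SE 0.36, adjusted p = 0.414). SFN, stratifin, a cell cycle inhibitor of keratinocytes that p53 also induces, was at 214, 208 and 179 CPM against 247, 850 and 353 CPM, a difference of 1.27 (SE 0.51, adjusted p = 0.437). KRT15, a keratin of resting basal and limbal cells, was instead at 2743, 2470 and 1447 CPM in the controls and 3799, 386 and 683 CPM in TL14d 1, 2 and 3, so TL14d 1 was the highest and TL14d 2 and TL14d 3 the lowest of the 6 libraries. It passed as lower without TL14d 1, at -2.06 (SE 0.49, adjusted p = 0.0483). TP63, the p63 transcription factor of basal cells, chosen after its values were seen, overlapped at 267, 279 and 166 CPM and 223, 131 and 190 CPM. Keratin genes are close copies of each other and all counts of KRT5, KRT8 and KRT15 were fractional, so reads may be shared among them.

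Corneal keratins lay above all controls in TL14d 2 and TL14d 3. KRT3, the corneal partner keratin, was above all controls in every TL14d library, at 82.9, 55.7 and 53.5 CPM against 83.9, 656 and 225 CPM, a difference of 2.33 (SE 0.61, adjusted p = 0.346). KRT12, the keratin that defines corneal epithelium, was at 1.9, 4.68 and 0.677 CPM in the controls and 0.672, 139 and 7.62 CPM in TL14d 1, 2 and 3. CLU, clusterin, was at 703, 762 and 518 CPM and 713, 2103 and 1234 CPM. Of 6 corneal genes tested, 3 were higher and 0 lower at an unadjusted p under 0.05, and 2 passed without TL14d 1. The count was 2 without control 3 and 3 without control 2. Whether corneal or limbal tissue was included in TL14d 2 was not tested.

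Of 10 goblet cell and mucin genes tested, 0 had an unadjusted p under 0.05, 1 was lower without control 3, and the median difference was -0.32, or -0.72 without TL14d 1. Of 11 secreted defense genes, 1 was higher and 0 lower, beside 6.96% and 3.41% of all genes. The higher count was 5 without control 3, beside 7.29%, and 0 without control 2, beside 4.6%. MUC4, a membrane mucin, was at 1739, 2212 and 2707 CPM in the controls and 1858, 1503 and 1116 CPM in TL14d 1, 2 and 3. SPDEF, the transcription factor of goblet cells, was lowest in TL14d 2, at 8.66, 13 and 14.7 CPM and 21.2, 1.77 and 12.1 CPM. OLFM4, a secreted glycoprotein of mucosal epithelium, was at 465, 764 and 356 CPM and 685, 33.4 and 28.9 CPM, and passed as lower without TL14d 1 (-4.08 (SE 0.8, adjusted p = 0.0273)). Of 15 cytochrome P450, conjugating and retinoid enzymes tested, 4 lay below and 2 above all controls in both TL14d 2 and TL14d 3, which for the lower side is near the 20.1% of all genes. At an unadjusted p under 0.05, 1 was higher and 0 lower, beside 6.96% and 3.41% of all genes. The median difference was 0.26, or 0.08 without control 2 and -0.15 without TL14d 1. Without control 2 the counts were 1 higher and 1 lower, beside 4.6% and 2.51%. CYP2A11, a cytochrome P450, was at 884, 1107 and 434 CPM and 716, 70.5 and 90.5 CPM, CYP4A7, a fatty acid hydroxylase, at 21.5, 17.6 and 11.9 CPM and 16.1, 2.88 and 2.51 CPM, and FMO2, a flavin monooxygenase, at 19.6, 20.9 and 3.29 CPM and 30.3, 0.869 and 0.651 CPM. All 3 passed as lower without TL14d 1, by -3.33 (SE 0.77), -2.66 (SE 0.51) and -4.25 (SE 0.98). CRABP2, a retinoic acid carrier of differentiating epithelium, went the other way, at 27.2, 59.1 and 54.2 CPM and 36.9, 756 and 326 CPM, with a difference without TL14d 1 of 3.53 (SE 0.45, adjusted p = 0.00772).

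**Figure D5:**
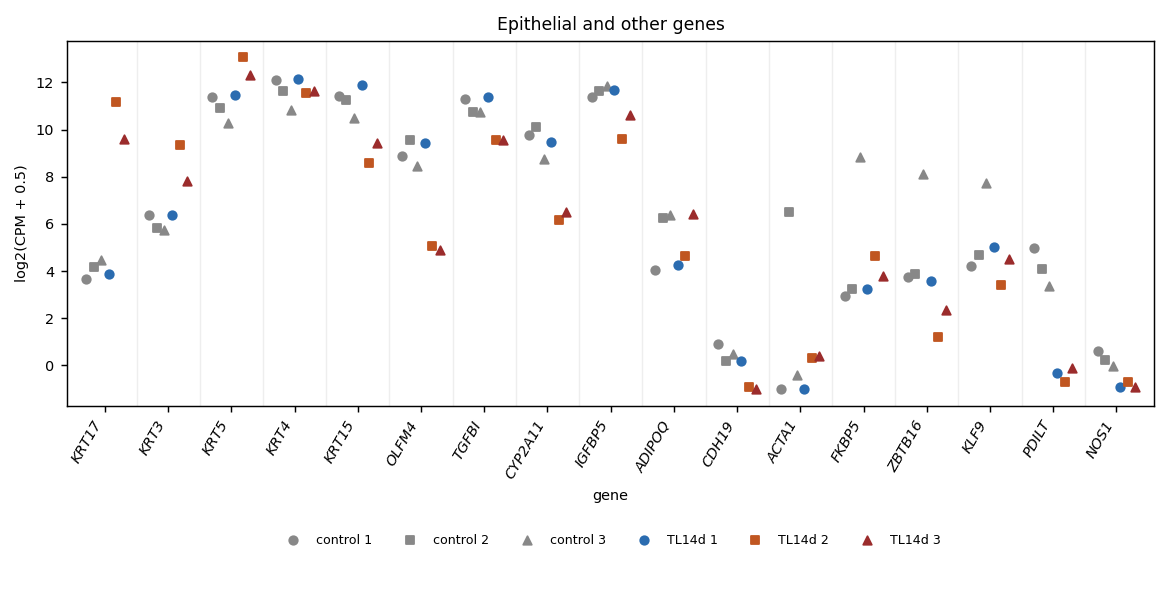
Level of epithelial, adipocyte, nerve, muscle, glucocorticoid-induced and other genes in each library, as log2(CPM + 0.5) (y axis), with controls in grey and TL14d 1, 2 and 3 in blue, orange and red. KRT17 and OLFM4 separated TL14d 2 and TL14d 3 from the other libraries, FKBP5 separated control 3, ACTA1 separated control 2, and PDILT was near 0 in all 3 TL14d libraries.

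Of 17 nerve and glial genes tested, TL14d 2 and TL14d 3 both lay above all controls in 2 and below them in 7, beside 21.6% and 20.1% of all genes. CDH19, a cadherin of Schwann cells, was at 1.38, 0.65 and 0.903 CPM in the controls and 0.639, 0.0272 and 0 CPM in TL14d 1, 2 and 3, and GFAP, a glial filament, at 1.04, 0.675 and 1.25 CPM and 1.65, 0.0272 and 0 CPM. Both passed as lower without TL14d 1, at -5.75 (SE 1.38, adjusted p = 0.0493) and -5.77 (SE 0.99, adjusted p = 0.0182), from levels near 1 CPM. EGR2, a transcription factor of Schwann cells and also of activated leukocytes, was above all controls in every TL14d library, at 1.4, 2.33 and 0.803 CPM against 2.56, 38.1 and 4.26 CPM. At an unadjusted p under 0.05, 2 were higher and 0 lower, beside 6.96% and 3.41% of all genes. The higher count was 1 without control 3, beside 7.29%, and 1 without control 2, beside 4.6%.

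Among 8 adipocyte genes tested, 0 were higher and 2 lower at an unadjusted p under 0.05, beside 6.96% and 3.41% of all genes. The lower count was 1 without control 3, beside 3.6%, and 2 without control 2, beside 2.51%. GPD1, the glycerol phosphate dehydrogenase of fat cells, was below all controls in every TL14d library, at 2.94, 7.13 and 4.74 CPM against 2.39, 0.978 and 1.07 CPM, a difference of -1.74 (SE 0.46, adjusted p = 0.346). LPL, lipoprotein lipase, was at 34.9, 87.7 and 340 CPM and 53.9, 16.8 and 8.85 CPM, and ADIPOQ, adiponectin, which defines adipocytes, overlapped at 16, 76 and 82.3 CPM and 18.8, 24.3 and 84.2 CPM. Skeletal muscle genes were lower at an unadjusted p under 0.05 in 3 of 8, beside 3.41% of all genes, and in 4 without control 3, beside 3.6%. The count was 0 without control 2, the library that held these genes. Pigment cell genes summed to 199 CPM in TL14d 2 against 24.8 to 70.2 CPM in the other 5 libraries. TYRP1, a melanin enzyme that gave much of this sum, was at 21.1, 5.7 and 12.4 CPM and 14.6, 97 and 4.98 CPM. Of 8 tested, 1 was higher and 0 lower at an unadjusted p under 0.05, beside 6.96% and 3.41% of all genes. The higher count was 2 without control 3, beside 7.29%, and 0 without control 2, beside 4.6%.

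Interferon-stimulated genes, which cells switch on against viruses, had a lower summed level in TL14d libraries than in control 1 and control 2, and about the level of control 3 in TL14d 1, 2 and 3. The 20 genes summed to 2169, 1738 and 1052 CPM in the controls and to 1070, 1067 and 1051 CPM in TL14d 1, 2 and 3, so this was a group in which the 3 TL14d libraries were nearly equal. At an unadjusted p under 0.05, 0 were higher and 5 lower, beside 3.41% of all genes lower. The 5 became 18 without control 3, beside 3.6% of all genes, and 2 without control 2, beside 2.51%. IFI44L was at 126, 105 and 63 CPM in the controls and 60.3, 51.6 and 52.1 CPM in TL14d 1, 2 and 3, a difference of -0.85 (SE 0.24, adjusted p = 0.346). MX1, an antiviral GTPase, was at 391, 304 and 198 CPM and 215, 131 and 154 CPM, a difference of -0.83 (SE 0.29, adjusted p = 0.405). DDX58, the RNA sensor RIG-I, was at 243, 244 and 190 CPM and 156, 169 and 151 CPM, a difference of -0.51 (SE 0.2, adjusted p = 0.43). IFI44L and DDX58 were the 2 members below all controls in every TL14d library, beside 5.11% of all genes. None of the list passed without TL14d 1. IRGM, an interferon-inducible GTPase outside this list, was at 118, 200 and 40.9 CPM and 26.9, 28.9 and 30.8 CPM, a difference of -2.05 (SE 0.63, adjusted p = 0.365).

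For glucocorticoid-induced genes the counts depended on control 3. Of 13 genes tested, 0 were higher and 4 lower at an unadjusted p under 0.05, beside 6.96% and 3.41% of all genes. Without control 3 the counts were 2 higher and 0 lower, beside 7.29% and 3.6%. The median difference was then 0.08 in place of -0.60. The median was -0.90 without control 2 and -1.53 without TL14d 1. Without control 2 the counts stayed at 0 higher and 4 lower, beside 4.6% and 2.51%. TL14d 2 and TL14d 3 both lay below all controls in 5 of the 13 genes, beside 20.1% of all genes. FKBP5 was at 7.26, 8.83 and 454 CPM in the controls and 8.84, 24.8 and 13.5 CPM in TL14d 1, 2 and 3, a difference of -3.32 (SE 1.31, adjusted p = 0.433). ZBTB16, a zinc finger gene induced by glucocorticoids, was below all controls in every TL14d library, at 13, 14 and 275 CPM and 11.4, 1.79 and 4.62 CPM. TSC22D3, encoding the anti-inflammatory mediator GILZ, was at 247, 171 and 428 CPM and 368, 86.6 and 109 CPM.

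Growth factor genes moved in both directions. RSPO2, an R-spondin that strengthens Wnt signalling, was at 0, 0 and 0.0251 CPM in the controls and 0, 3.26 and 27.3 CPM in TL14d 1, 2 and 3. Its relative RSPO3 was at 1.66, 5.85 and 3.41 CPM and 4.37, 0.0543 and 0.228 CPM. The differences without TL14d 1 were 10.33 (SE 1.56, adjusted p = 0.0129) and -4.69 (SE 1.08, adjusted p = 0.0447), in opposite directions. PDGFB, the platelet-derived growth factor for pericytes and fibroblasts, was above all controls in every TL14d library, at 2.68, 4.73 and 2.78 CPM against 6.02, 44.1 and 11.7 CPM, a difference of 2.6 (SE 0.63, adjusted p = 0.346). AREG, the epidermal growth factor receptor ligand amphiregulin, was at 0.19, 0.35 and 0.376 CPM against 0.437, 9.26 and 2.8 CPM, and GREM1, a BMP antagonist, at 1.97, 1.4 and 1.18 CPM against 2.62, 21.7 and 9.57 CPM. WNT5A, a ligand of wound fibroblasts and epithelium, was at 4.89, 4.98 and 4.84 CPM and 4.07, 61.9 and 23.8 CPM, and passed without TL14d 1 (3.13 (SE 0.43, adjusted p = 0.0099)). IGFBP5, an abundant insulin-like growth factor binding protein, was at 2696, 3225 and 3668 CPM and 3321, 770 and 1588 CPM, and passed as lower (-1.44 (SE 0.31, adjusted p = 0.0346)). Of 34 genes tested, 7 were higher and 0 lower at an unadjusted p under 0.05, beside 6.96% and 3.41% of all genes. Without control 3 the higher count was 9, beside 7.29%. Without control 2 the counts were 6 higher and 1 lower, beside 4.6% and 2.51%.

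Vessel and hypoxia lists differed in their counts. Of 20 blood vessel genes, 0 had an unadjusted p under 0.05 in either direction, 1 was higher without control 2, and PECAM1, the endothelial adhesion molecule CD31, was at 5.91, 26 and 135 CPM in the controls and 18, 27.8 and 68.1 CPM in TL14d 1, 2 and 3. In the lymphatic list 2 of 10 were higher, beside 6.96% of all genes. The count was 2 without control 3, beside 7.29%, and 1 without control 2, beside 4.6%. PROX1, the transcription factor that defines lymphatic endothelium, was at 3.06, 7.08 and 8.58 CPM and 9.75, 0.897 and 9.15 CPM, lowest in TL14d 2. RELN, reelin, was at 8.54, 12.4 and 36.7 CPM and 15.2, 476 and 122 CPM, and PDPN, podoplanin, which myofibroblasts and epithelium also make, at 36.2, 53.1 and 55.8 CPM and 45.3, 251 and 86.9 CPM. Of 16 hypoxia and glycolysis genes, 2 were higher and 2 lower at an unadjusted p under 0.05, beside 6.96% and 3.41% of all genes, with 2 and 1 without control 3 and 1 and 2 without control 2. ENO1, enolase, was above all controls in every TL14d library, at 489, 450 and 390 CPM against 701, 611 and 588 CPM, a difference of 0.52 (SE 0.16, adjusted p = 0.376).

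A few genes lay clear of the controls in all 3 TL14d libraries, TL14d 1 included, and these were chosen after their values were seen. CRELD1, a cell adhesion gene with epidermal growth factor-like domains (unplaced sequence, 276586446-276594238, minus strand), was at 24.7, 25.4 and 29 CPM in the controls and 52.5, 44.2 and 42.9 CPM in TL14d 1, 2 and 3. Its difference was 0.82 (SE 0.13, adjusted p = 0.346), with the lowest unadjusted p of all genes tested and a range of 7.04e-07 to 0.984 over the alternatives. NATD1 was at 27.2, 24.9 and 25.8 CPM against 38.4, 36.7 and 38.7 CPM, a difference of 0.55 (SE 0.1, adjusted p = 0.346). ITGB5, an integrin subunit that binds vitronectin, was at 47.8, 48.3 and 57.9 CPM against 83.1, 98 and 99.8 CPM, and ID1, an inhibitor of differentiation that BMP signalling induces, at 14.6, 16.9 and 13 CPM against 30.4, 51.6 and 48.2 CPM. NOS1, neuronal nitric oxide synthase, lay below the controls, at 1.02, 0.675 and 0.477 CPM against 0.0336, 0.109 and 0.0326 CPM, levels at or near that of 3 counts, a difference of -3.51 (SE 0.66, adjusted p = 0.346).

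Among genes that did not overlap and had an unadjusted p under 0.05, 616 met the rule for naming, 355 higher and 261 lower. TNFRSF9, the T cell costimulatory receptor 4-1BB, was at 0.38, 0.275 and 0.276 CPM in the controls and 7.46, 18.4 and 0.814 CPM in TL14d 1, 2 and 3, a difference of 4.83 (SE 0.93, adjusted p = 0.346). SOX11, a transcription factor of embryonic tissue, was at 0.0237, 0.125 and 0.0752 CPM and 0.168, 3.86 and 2.25 CPM, a difference of 4.75 (SE 1.02, adjusted p = 0.346). GDF7, a BMP family ligand, was at 0.0949, 0.175 and 0.702 CPM and 0.975, 5.14 and 20.4 CPM. On the lower side PDILT, a protein disulfide isomerase-like gene known from testis, was near 0 in every TL14d library, at 30.7, 16.7 and 9.78 CPM in the controls and 0.303, 0.109 and 0.423 CPM in TL14d 1, 2 and 3, a difference of -6.1 (SE 1.8, adjusted p = 0.346). HP, haptoglobin, was at 33.2, 41.8 and 129 CPM and 11.5, 5.54 and 19.4 CPM, a difference of -2.49 (SE 0.97, adjusted p = 0.431). GFRA1, a receptor for glial cell line-derived neurotrophic factor, was at 8.14, 32.5 and 6.9 CPM and 4.98, 0.951 and 3.06 CPM, and SLC17A8, a vesicular glutamate transporter, at 0.926, 2.7 and 2.81 CPM and 0.841, 0.0815 and 0.228 CPM. ATP12A and DIRAS3 were higher and KCNJ3, KLHL31, WSCD2, PCDH15 and AMER2 lower under the same rule.

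Genes for which TL14d 1 lay with the controls showed the widest spread within the TL14d group. CNGA3, a cyclic nucleotide-gated channel, was at 0.166, 0.025 and 0.125 CPM in the controls and 0.134, 93.8 and 48.6 CPM in TL14d 1, 2 and 3, with a difference without TL14d 1 of 9.34 (SE 1.0, adjusted p = 0.00423). TNFSF11, the osteoclast-inducing cytokine RANKL, was at 0.403, 0.3 and 0.251 CPM and 0.403, 128 and 17.4 CPM, with a difference of 7.82 (SE 0.9, adjusted p = 0.0054). CDH6, a cadherin, and NRP2, a receptor for semaphorins and VEGF, both chosen after their values were seen, were at 2.82, 510 and 205 CPM and 14.8, 404 and 200 CPM in TL14d 1, 2 and 3 against 1.26, 4.95 and 8.43 CPM and 5.91, 12.7 and 27.3 CPM in the controls. PLET1, an epithelial progenitor marker chosen in the same way, was at 2.44, 1.08 and 3.11 CPM and 1.34, 488 and 43.1 CPM. On the lower side GRM7, a glutamate receptor, was at 4.03, 3.18 and 8.58 CPM and 4.24, 0.0272 and 0.0326 CPM, with a difference without TL14d 1 of -7.3 (SE 1.57, adjusted p = 0.0364). TREH, GALNT13, NKAIN3, ADARB2 and CNGA2 were lower by the same rule, each with TL14d 2 and TL14d 3 below all controls.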

How the data were processed

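RNA of rabbit conjunctiva was sequenced from stranded mRNA libraries. Per the study's methods and the submitters' processing notes, the authors mapped reads to OryCun2.0 with STAR 2.6.0c and quantified genes and transcripts with GeneData Profiler Genome. The deposited gene table held, for each of 12 libraries, estimated counts, of which 23.4% of values were not whole, and FPKM values calculated by the authors, which were not tested. The deposited transcript table was not used here, and 0 columns of per-sample values lacked a label.

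Estimated counts were rounded. Groups were taken from the labels. Genes were filtered with filterByExpr (minimum count 10, minimum total 15), scaled by trimmed mean of M values, and fitted with edgeR 4.0.16 in R 4.3.3 by the quasi-likelihood test over all 12 libraries without covariates, with TL14d contrasted to control and Benjamini-Hochberg adjustment at 0.05. The methods of the study named edgeR and the same threshold. CPM values used the scaled library sizes. A floor of 3 counts limited values at 0, and floors cover counting error only. Fold changes used a prior count of 0.125. Scripts were tested on simulated data.

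Alternatives were DESeq2 1.42.0 (size factors and Wald test), library size as the only scaling, limma 3.58.1 voom with sample weights, no filter, only the 6 libraries, a replicate block, and each library left out. The comparison and the 33 gene lists were chosen with earlier results of these data known. The genes named were the 12 highest and 12 lowest differences among genes with a symbol of their own (not LOC) whose mean level reached 1 CPM that did not overlap and had an unadjusted p under 0.05, the same among genes past the threshold without TL14d 1, the first 3 tested members and the 2 with the lowest p of each list, the 10 genes with the largest spread in TL14d among genes with a control SD under 0.5, and CCL2, IL6, ACTA2 and COL1A1, with others said to be chosen after their values were seen. A few genes that met these rules are not reported here.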

Additional observations from a re-analysis of the deposited data

How the results depend on the processing

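Which genes were called depended on TL14d 1, on the method and on the other libraries in the fit. The count past the adjusted threshold, 0 in the fit of all libraries, was 367 with the DESeq2 Wald test, 1560 with limma-voom sample weights and 0 to 721 when 1 library was left out, with 721 reached without TL14d 1. The counts were also 0 with DESeq2 size factors, with library size as the only scaling, without the filter on low counts and with only the 6 libraries compared. In alternatives chosen after seeing the data, leaving TL14d 1 out gave 0 genes when only the 5 compared libraries were fitted (lowest adjusted p 0.077), 2058 with DESeq2, 656 with library size as the only scaling and 571 with the replicate block, and leaving out TL14d 1 and control 3 together gave 1015. The count at an unadjusted p under 0.05 was 4623 with limma-voom weights, 840 with only the 6 libraries and 724 to 3331 when 1 library was left out. The count of genes whose groups did not overlap was 2338 to 6190 when 1 library was left out, 6190 without TL14d 1. Smaller groups fail to overlap more often by their size alone, so these counts are not on a par with the 1652 of all 6 libraries. A fit that left out a library had 2 libraries in that arm, whose spread was then estimated together with the other groups.

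Groups shared replicate numbers, but same-numbered TL14d and control libraries did not deviate together in each pair (correlations 0.252, 0.013 and 0.445), and control 2 correlated best with TL14d 1, so the numbers were not taken as pairs. The fit with the replicate block called 0 genes and had 1534 at an unadjusted p under 0.05.

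Of 3629 values for 281 named genes under 13 alternatives, 3516 kept their direction and 113, in 57 genes, reversed, none of them under another scaling. The cause was not tested. With limma-voom weights the log2 difference became 0.69 for COL1A1, 0.25 for COL1A2, 0.38 for COL3A1, 1.19 for LOX, -0.03 for SOX9, 0.7 for PDGFRB, 0.08 for RGS5, 0.64 for KERA, -0.03 for KRT4, -0.41 for PIGR, -0.92 for CYP4B1, 0.07 for ADIPOQ, 1.25 for PECAM1, -0.15 for PROX1, 2.59 for CXCR2, 1.51 for CXCR1, 0.92 for CSF1R, 0.4 for CD79B, -0.06 for TOP2A, 0.41 for FKBP5 and -0.55 for BTG2. With the replicate block it became 0.03 for COL1A1, 0.17 for LOX, 0.07 for PDGFRB, 0.03 for KERA, -0.22 for CYP4B1, -0.04 for PROX1 and 0.07 for CSF1R. When 1 library was left out, the log2 difference ran from -4.25 to 0.1 for FMO2, -1.12 to 0.69 for COL1A1, -1.08 to 0.29 for COL1A2, -1.04 to 0.42 for COL3A1, -1.48 to 1.2 for LOX, -0.48 to 1.72 for POSTN, -1.07 to 0.4 for MYH11, -0.66 to 0.67 for PDGFRB, -1.19 to 0.71 for KERA, -0.65 to 0.14 for ALDH1A1, -0.11 to 0.49 for KRT4, -2.06 to 0.01 for KRT15, -0.8 to 0.08 for MUC1, -0.4 to 0.31 for LCN2, -0.18 to 0.35 for PIGR, -1.02 to 0.53 for CYP4B1, -2.93 to 0.29 for S100B, -6.42 to 2.07 for ACTA1, -8.34 to 1.11 for MYLPF, -1.29 to 1.24 for PECAM1, -0.95 to 1.33 for CDH5, -0.22 to 1.22 for VWF, -0.08 to 0.78 for ICAM1, -0.32 to 0.6 for PROX1, -2.49 to 0.45 for LYVE1, -0.38 to 0.84 for FLT4, -0.93 to 2.36 for CSF3R, -2.06 to 2.5 for CXCR2, -2.43 to 1.54 for CXCR1, -0.55 to 1.05 for CSF1R, -0.12 to 1.54 for CD1B, -0.54 to 0.24 for CD3E, -0.73 to 0.15 for CD3D, -1.47 to 0.31 for CD79B, -1.69 to 0.04 for KIT, -0.08 to 1.64 for FCER1A, -0.5 to 3.59 for TYR, -0.88 to 2.6 for PMEL, -1.64 to 4.88 for DCT, -0.21 to 0.62 for MKI67, -0.2 to 0.32 for TOP2A, -3.88 to 0.96 for FKBP5, -1.1 to 0.2 for PER1, -1.86 to 0.08 for ADM, -2.85 to 0.31 for DNAH9, -0.04 to 0.56 for DNAH11, -0.78 to 0.02 for RPL32, -0.22 to 2.07 for MMP2, -0.23 to 0.59 for BTG2, -1.61 to 0.04 for LIPE, -0.41 to 2.1 for TYRP1, -0.8 to 0.46 for SPDEF, -0.92 to 1.41 for COL14A1 and -3.7 to 0.09 for COL2A1.

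Of 429 list medians under the alternatives, 51 moved by more than the spread of the TL14d libraries. Counts were estimated by the authors and 23.4% of values were not whole, and all counts of COL1A1, KRT4, KRT5, KRT8, KRT15, MUC4, THBS4, GPD1, PAX6, IGFBP5 and FOXP3 were fractional. Genes at or under the floor of 3 counts, such as IBSP in the controls, were limited by depth.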

Other observations

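A pair of neighbouring genes on chromosome 6 was near 0 in all 3 TL14d libraries. PDILT (7963231-8020372, plus strand, OryCun2.0) was at 30.7, 16.7 and 9.78 CPM in control 1, 2 and 3 and 0.303, 0.109 and 0.423 CPM in TL14d 1, 2 and 3. LOC100342192, annotated as the mitochondrial acyl-coenzyme A synthetase ACSM2B (7931736-7956925, minus strand), lies 6305 bases away and was at 26.2, 18.4 and 3.69 CPM and 0, 0.0272 and 0 CPM. Both were also near 0 in 2 of the 3 libraries taken 3 hours after surgery, where PDILT was at 0.0384, 17.5 and 0.0732 CPM, and both were present in the 3 libraries taken at 3 days, where PDILT was at 18.1, 21.3 and 22.5 CPM. Single libraries therefore held the pair or lacked it. LOC103347507, annotated as a major allergen I-like gene, was at 3.84, 5.8 and 3.99 CPM in the controls and 0, 0.0272 and 0 CPM in TL14d 1, 2 and 3.

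Ribosomal protein L32 was counted at 3 loci, each with fractional counts in every library. The main locus RPL32 was at 453, 372 and 356 CPM in the controls and 532, 192 and 268 CPM in TL14d 1, 2 and 3. The copies LOC100352536 on chromosome 20 and LOC100345217 on chromosome 1 went the other way, at 6.31, 5.3 and 4.92 CPM and 8.17, 53.6 and 79.3 CPM for the first and 4.56, 3.63 and 3.51 CPM and 5.95, 23.3 and 29.8 CPM for the second. LOC100352536 had the lowest adjusted p of all genes without TL14d 1, 3.59 (SE 0.19, adjusted p = 0.000235), and a range of 0.000102 to 0.984 over the alternatives. In the libraries taken 3 hours and 3 days after surgery it was at 3.92 to 5.64 CPM.

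TL14d 1 itself lay more than 4-fold outside all controls for 14 genes whose mean level reached 1 CPM, 7 above and 7 below. TCN1, a vitamin B12 carrier, was at 1.19, 1.15 and 1.86 CPM in the controls and 15.1, 10.1 and 2.12 CPM in TL14d 1, 2 and 3. DHRS3, a retinaldehyde reductase, was at 3.25, 1.75 and 8.88 CPM and 40, 5.76 and 12.3 CPM, highest in TL14d 1. TNFRSF9 was at 7.46 CPM in TL14d 1. LOC100351399 was at 30.8, 26.3 and 15.9 CPM in the controls and 1.11, 254 and 101 CPM in TL14d 1, 2 and 3, so TL14d 1 was the lowest and TL14d 2 the highest of the 6 libraries. All of these genes were chosen after their values were seen.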
